A study of Oryctolagus cuniculus with 57 samples.

Results

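AQP4 encodes a water channel. Aquaporins are membrane proteins that let water, and in some members glycerol, pass along osmotic gradients, and AQP4 is best known from the end feet of brain astrocytes, where the dystrophin complex holds it at the membrane. In the mammalian digestive tract it has been described in gastric parietal cells, in the epithelium of the large bowel and in the enteric nervous system, and it also lies in the membrane of skeletal muscle fibres. Water leaves the ileal lumen mostly behind absorbed salt and sugars. RNA of whole tissue does not show which cells hold AQP4, so a part of AQP4 in this step was not tested.

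AQP4 is 1 of 9656 named genes on the array, and its values come from 2 array probes for AQP4, out of 42089 probes on the array and 20856 that carried a gene name. Both were found through the transcript accessions that the array files give for each probe. The gene was chosen by its rise between the ages, which is among the largest on the array, so its age differences are given here as a description and without a test. Treatment differences played no part in that choice and were tested.

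Total RNA of whole ileum from 57 hybrid rabbits was hybridized with a single dye, 1 array per rabbit, at day 35 (weaning) or day 49. In the NF treatment the pups were kept from eating feces in the nest. In FF and FFab the feces of the mother were taken away and those of unrelated does were put in their place, the does being untreated in FF and given tiamulin and tetracycline in FFab. None of the 3 treatments therefore let the pups eat feces of their own mother. The 56 arrays that the study kept are used, of which FF has 10 at day 35, NF 9 and FFab 10, and each treatment 9 at day 49. Each rabbit was sampled once, so the ages are different animals, and since the labels give neither litter nor sex, errors and p-values measure only the spread between these rabbits. Across the arrays, 68.2% to 85.7% of probes were well above background, which is the mark that the scanner software sets on a spot clearly brighter than its surroundings.

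The sequences of both probes are shown because they fix what was measured. They hybridize to the coding sequence of AQP4, on the minus strand of chromosome 9 in the oryCun2 build, as the array files place them. The first, A_04_P004256, lies at chr9:68091483-68091542, and the second, A_04_P004257, at chr9:68091592-68091651, with 49 bases between them. Counted along the transcript, they begin at bases 871 and 762, so the second lies upstream of the first and no intron separates them. Both are 60 bases long, of which 45.0% in the first and 43.3% in the second are G or C.
A_04_P004256: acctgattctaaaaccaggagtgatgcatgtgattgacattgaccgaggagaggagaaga
A_04_P004257: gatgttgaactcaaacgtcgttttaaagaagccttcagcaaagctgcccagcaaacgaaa
Each sequence is given 5′ to 3′, in the sense of the transcript. Both are open in the same reading frame, in the part of the gene that encodes the cytoplasmic tail at the carboxyl end. The long and the short AQP4 proteins differ at the other end, so neither probe can tell them apart.

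AQP4 was near or below the limit of detection in the ileum at weaning and was measured in almost every rabbit 14 days later. On the first probe, the background-subtracted signal of the 29 rabbits of day 35 ran from 3.19 to 39.0 with a median of 12.5 scanner units, and 9 of them were well above background. In the 27 rabbits of day 49 it ran from 11.1 to 254.6 with a median of 100.9, and 26 were well above background. The second probe was well above background in 0 of the 29 rabbits of day 35, where its signal lay between 3.39 and 19.9. At day 49 it was in 22 of 27, with a median signal of 51.4 and a range of 4.65 to 139.8. The local background around these spots did not move with age: on the first probe it had a median of 18 at both ages, and on the second probe a median of 23.

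In FF rabbits the first probe read 4.24, 10.9 and 35.5 as the lowest, median and highest signal of day 35, and 67.2, 119.4 and 174.8 at day 49. The second probe read 3.39, 6.57 and 19.7 against 29.1, 56.5 and 77.9. Every FF rabbit of day 49 was therefore above every FF rabbit of day 35 on both probes. Such a full separation upward, on the normalized scale, was seen in FF for 25 of the 8030 genes tested (0.311%).

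In NF rabbits the first probe read 5.76, 15.5 and 38.0 at day 35 and 11.1, 77.3 and 126.6 at day 49. The ages overlapped here: 7 of the 9 NF rabbits of day 49 were above the highest of day 35. The lowest was rabbit lap206, whose signal of 11.1 was not well above background, and whose second probe, at 8.15, was not either. On the second probe NF rabbits read 3.53, 5.97 and 11.8 at day 35 and 8.15, 43.3 and 74.4 at day 49, with 8 of 9 above the highest of day 35.

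In FFab rabbits the first probe read 3.19, 13.7 and 39.0 at day 35 and 31.0, 129.8 and 254.6 at day 49, and again 7 of the 9 older rabbits were above the highest of the younger ones. The second probe read 4.15, 6.20 and 19.9 against 4.65, 45.9 and 139.8, with 6 of 9 above. FFab at day 49 thus held both the rabbit with the highest signal of all on both probes, rabbit lap202, and rabbits close to the level of weaning. After normalization 8 of the 9 older FFab rabbits were above the younger ones on the first probe and 6 on the second, and in NF 7 and 9 were. Over all genes, each read from 1 probe, none was fully separated upward between the ages in NF or in FFab (0% of genes in each).

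**Figure D1:**
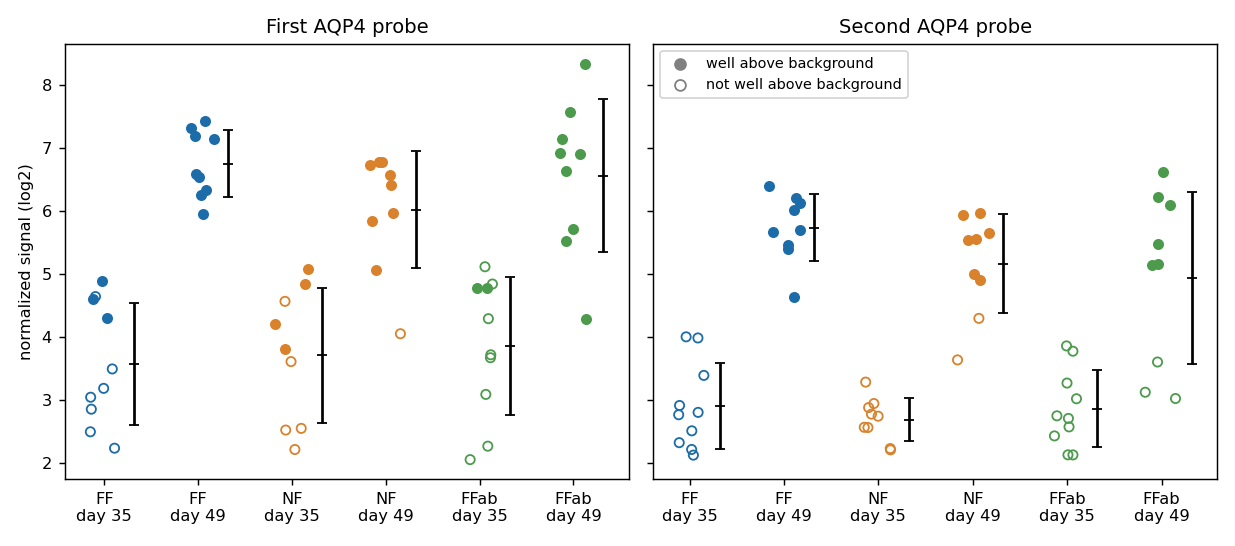
AQP4 in each of the 56 rabbits by treatment and day, for the first probe (left) and the second (right), as quantile-normalized signal on a log2 scale; filled points are well above background, open points are not, and bars show the mean ± SD of a group. In the left panel the 9 FF rabbits of day 49 are filled and lie above all 10 of day 35; in the right panel all points of day 35 are open.

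On the normalized log2 scale the first probe ordered the groups as FF, FFab and NF at day 49, with means of 6.74 ± 0.53 (SD, n = 9), 6.56 ± 1.21 (n = 9) and 6.02 ± 0.93 (n = 9). At day 35 the means were 3.86 ± 1.1 in FFab (n = 10), 3.71 ± 1.07 in NF (n = 9) and 3.57 ± 0.96 in FF (n = 10). Only the step between the last group of day 49 and the first of day 35 exceeded the SDs of its neighbours. On the second probe the order at day 49 was FF (5.73 ± 0.53), NF (5.16 ± 0.79) and FFab (4.94 ± 1.37), and at day 35 it was FF (2.90 ± 0.68), FFab (2.86 ± 0.61) and NF (2.69 ± 0.34). The order within an age was therefore not the same on the 2 probes. The FF rabbits of day 49 had the smallest SD of that age on both.

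The fitted age difference of the first probe was 3.17 ± 0.45 (SE) in FF, 2.31 ± 0.46 in NF and 2.70 ± 0.45 in FFab, on the log2 scale, which is 9.01-fold, 4.95-fold and 6.49-fold. Averaged over treatments it was 2.73 ± 0.26. The second probe gave 2.83 ± 0.35, 2.48 ± 0.36 and 2.08 ± 0.35, and 2.46 ± 0.21 averaged. Because no rabbit of day 35 was well above background on the second probe, its fitted difference has no measured day 35 level behind it. For each array, the dimmest signal of any probe that still counted as well above background was put in wherever this probe fell under it. AQP4 was then 6.16-fold higher at day 49 in FF, 5.11-fold in NF and 3.78-fold in FFab. On this probe 7 of 9 NF rabbits and 6 of 9 FFab rabbits of day 49 were well above background. These folds are not lower limits, since the limit of this probe lay higher. NF rabbit lap189 of day 49 read 23.0 on it and was not well above background. These sizes depend on how background is removed, because the day 35 signal is so close to it. From the median spot signal with no background correction the averaged difference of the first probe was 1.35, with normexp background correction 0.95, and in the log2 values of the authors 1.39.

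In the ranking of 8030 genes by the averaged age difference, the first probe placed AQP4 at rank 3, at rank 4 in FF, 6 in NF and 1 in FFab. These ranks, like the folds, are set against a day 35 level near background, and were not taken under the other background corrections. The median gene differed by -0.01, and 99% of genes lay below 0.83. A gene was called at an adjusted p under 0.05 and a log2 difference beyond 0.5. By this rule 2.44% of genes were called higher and 1.08% lower over all treatments, 2.91% and 1.59% in FF, 0.0249% and 0% in NF, and 0.0747% and 0.0125% in FFab. AQP4 is counted in the higher shares, though its own call is no test, since its age difference chose it. Apart from AQP4, the only gene called higher in NF was TNNC1, which encodes the troponin C of slow and cardiac muscle, and it was also called higher in FF and FFab. Both genes were bright enough to test only through the groups of day 49. At an unadjusted p under 0.05 stood 26% of genes over all treatments, 21.3% in FF, 6.30% in NF and 8.68% in FFab.

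All 6 groups lay on each of the 9 slides, apart from the NF group of day 35, which has no kept array on 1 of them, so the ages can be compared within a slide. For the first probe the day 49 rabbit exceeded the mean of the day 35 rabbits of its treatment on 9 of 9 slides in FF, with a median log2 difference of 3.07 and a range of 1.06 to 4.34. In FFab this held on 9 of 9 slides (median 2.24, 0.94 to 4.66). In NF it held on 7 of 8 (median 2.54, -0.51 to 4.02), and the exception was the slide of rabbit lap206. The second probe was higher at day 49 on every slide in all 3 treatments, with medians of 3.26 in FF, 2.44 in NF and 1.62 in FFab.

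**Figure D2:**
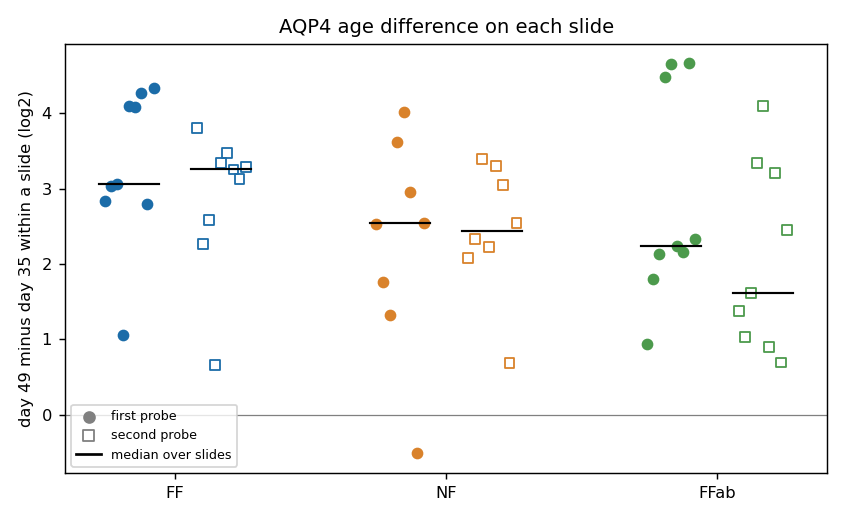
AQP4 difference between day 49 and day 35 within each slide, on the log2 scale, by treatment; filled circles are the first probe, open squares the second, and black lines the median over slides. All points lie above 0 except 1 NF point of the first probe at -0.51.

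At day 49 the probes ordered the rabbits much alike apart from 1 animal. There their normalized signals correlated over 27 arrays at a Pearson r of 0.60 and a Spearman rho of 0.72, and without FFab rabbit lap201 at 0.93 and 0.91 (26 arrays). Rabbit lap201 read 204.9 on the first probe, the second highest of all, and 4.65 on the second, the lowest of day 49. Each probe has 1 spot on an array, and no AQP4 spot was saturated or marked as uneven by the scanner software. Its part in the mean of FFab is visible in the second probe, where the age difference rose from 2.08 to 2.30 without it. The first probe was the brighter on all 27 arrays of day 49. At day 35 the r of 0.58 over 29 arrays (rho 0.55) is between values mostly not well above background.

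**Figure D3:**
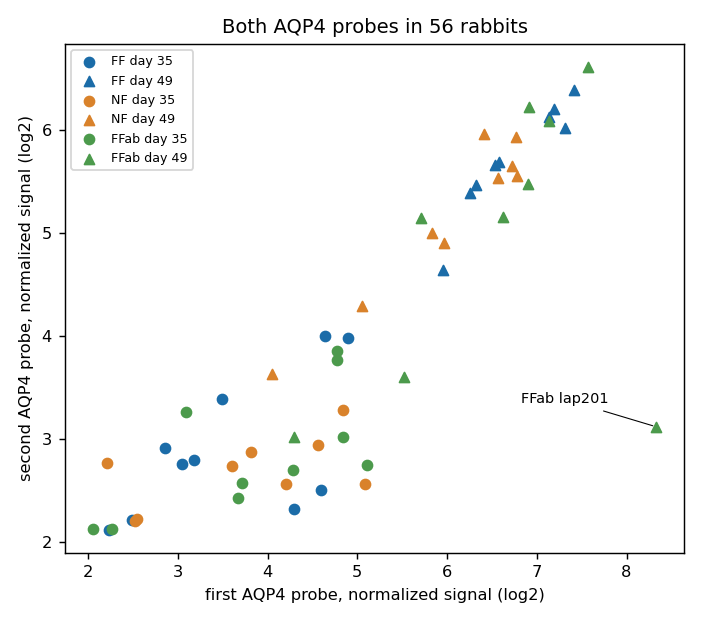
The first AQP4 probe (x axis) against the second (y axis) in the 56 rabbits, both as normalized log2 signal; circles are day 35, triangles day 49, and colours mark the treatments. The triangles follow 1 line except FFab rabbit lap201 at 8.33 and 3.12.

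Treatments were compared at each age to ask whether early access to feces, or antibiotics given to the donor does, went with another level of AQP4. No difference of the 3 pairs passed at day 35 or day 49 by limma's test over all genes. At day 49 the first probe was higher in FF than in NF by 0.73 ± 0.46 (SE) on the log2 scale (95% interval -0.19 to 1.65, p = 0.12, adjusted p = 1.0). FF exceeded FFab by 0.19 (-0.73 to 1.11), and NF was below FFab by a difference of -0.54 (-1.46 to 0.38). These intervals leave room for differences of more than 2-fold, so the treatments are not shown to be alike. At day 35 the first probe differed by -0.14 (-1.03 to 0.76) for FF minus NF, by -0.28 (-1.16 to 0.59) for FF minus FFab and by -0.15 (-1.04 to 0.75) for NF minus FFab, with adjusted p-values of 0.98, 1.0 and 1.0.

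On the second probe, FF was above FFab at day 49 by 0.79 ± 0.36 (0.07 to 1.52). This was the only one of the 12 treatment differences of both probes with an unadjusted p under 0.05 (p = 0.033), and the 6 at day 35 are between values mostly not well above background. Its adjusted p over the 31722 probes kept was 1.0, and without rabbit lap201 the difference was 0.56. Of the 8030 genes, 0.0374% were called for FF against NF at day 35 and 0.0125% for FF against FFab. For NF against FFab at day 35 and for the 3 pairs at day 49 the share was 0%, with 154, 96, 192 and 146 genes at an unadjusted p under 0.05.

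The age change itself was compared between treatments with interaction terms. On the first probe it was larger in FF than in NF by 0.87 ± 0.64 (-0.42 to 2.15, p = 0.18), larger in FF than in FFab by 0.47 ± 0.63 (-0.79 to 1.74, p = 0.46) and smaller in NF than in FFab by a difference of -0.39 ± 0.64 (-1.68 to 0.89, p = 0.54). All 3 adjusted p-values were 1.0. The second probe gave 0.35 ± 0.51, 0.75 ± 0.50 and 0.40 ± 0.51 for the same pairs, with adjusted p-values of 1.0. Of all genes 0% were called in each of the 3 interactions, while 370, 232 and 69 genes had an unadjusted p under 0.05.

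No difference in detection between treatments passed either. The first probe was well above background at day 35 in 3 FF rabbits of 10, 4 NF rabbits of 9 and 2 FFab rabbits of 10, and at day 49 in 9 of 9, 8 of 9 and 9 of 9. The second probe was so at day 49 in 9 FF rabbits, 7 NF rabbits and 6 FFab rabbits of 9 each. At day 35 it was so in no rabbit, so its 3 comparisons there could show no difference. The smallest of the 6 two-sided Fisher's exact p-values of each probe was 0.35 on the first (NF against FFab at day 35) and 0.21 on the second (FF against FFab at day 49), and all adjusted p-values were 1.

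Of the other aquaporins none was called between the ages. Of 13 other family members listed, 9 had probes on the array and 8 were bright enough to test. By the test over all genes, 0 of the 8 were called in the averaged comparison or in any treatment, and 2 had an unadjusted p under 0.05 in the averaged one, a share near the 26% of all genes. Their median difference was 0.22, against -0.01 over all genes. AQP1, the channel of vessel walls and red cells, differed by -0.33 ± 0.14 (SE; adjusted p = 0.11). Its lowest, median and highest log2 level were 7.69, 8.48 and 9.66 in FF rabbits of day 35 and 7.62, 7.98 and 8.79 at day 49, so the ages overlapped. AQP11, an intracellular member, differed by 0.23 ± 0.09 (adjusted p = 0.092), and its 4 probes gave 0.21 to 0.23.

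AQP7, which carries glycerol as well as water and is known from fat cells, differed by 0.35 ± 0.21 (adjusted p = 0.29). AQP8, a channel of gut epithelium, differed by -0.02 ± 0.16 on the probe used and by 0.18 ± 0.51 on its other one, with levels of 8.65, 9.45 and 11.3 in FF at day 35 and 8.59, 8.90 and 11.0 at day 49. AQP5, the channel of gland cells, differed by 0.36 ± 0.30, AQP3, which also carries glycerol, by 0.20 ± 0.20, AQP2, the vasopressin-regulated channel of the kidney, by -0.04 ± 0.12, and MIP, the channel of lens fibres, by 0.29 ± 0.25. Their adjusted p-values lay between 0.49 and 0.96 together with that of AQP8. The highest upper end of a 95% interval among the 8 was 0.95, that of AQP5, while the AQP4 difference was 2.73 on its first probe. The AQP4 value depends on the background correction and was 0.95 with normexp, under which the other aquaporins are not given. Within treatments, MIP differed most, by 0.93 ± 0.43 in FFab (adjusted p = 0.52). AQP9, a glycerol channel of liver cells, was not tested, since its brightest probe was well above background in 10 of 29 rabbits of day 35 and 9 of 27 of day 49.

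**Figure D4:**
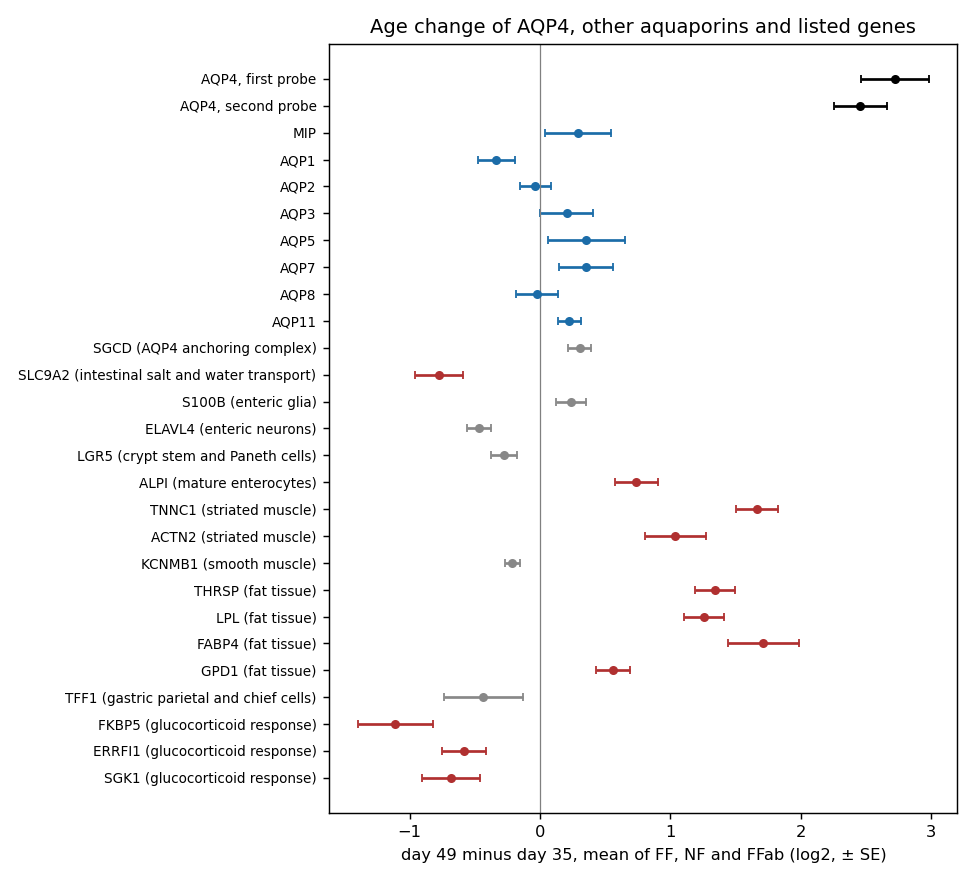
Difference between day 49 and day 35, averaged over FF, NF and FFab, on the log2 scale with its SE, for both AQP4 probes (black), the 8 other aquaporins (blue) and the genes named from the other lists, red where called and grey where not. AQP4 lies at 2.73 and 2.46; none of the blue points lies beyond 0.36.

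The proteins that hold AQP4 at the membrane were measured with the same arrays. Of 9 tested members of the dystrophin complex and its partners, 0 were called over all treatments, with 3 at an unadjusted p under 0.05 (26% of all genes) and a median difference of 0.02. SGCD, a sarcoglycan of the same complex, had the smallest p of the list, with a difference of 0.30 ± 0.09 (adjusted p = 0.011) that did not reach the limit of 0.5, and it was called in FF alone (0.65 ± 0.15, adjusted p = 0.0030). In NF it differed by 0.14 and in FFab by 0.12, and whether its change differs between treatments is not reported. KCNJ10, the potassium channel found beside AQP4 in glia, was well above background in 9 of 29 rabbits of day 35 and 9 of 27 of day 49 and was not tested.

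Among 18 tested genes of intestinal salt and water transport, 1 fell and none rose over all treatments (1.08% and 2.44% of all genes), with a median difference of 0.16. The one that fell was SLC9A2, a sodium-proton exchanger of the apical membrane, by 0.78 ± 0.19 on the log2 scale (adjusted p = 0.0027). Its lowest, median and highest level in FF were 7.59, 8.86 and 9.53 at day 35 and 7.33, 7.75 and 8.58 at day 49, overlapping between the ages. In FF 2 of the 18 rose (2.91% of all genes) and none fell, and both were looked up after the count was seen. SLC5A1, which takes up glucose with sodium, rose there by 0.80 ± 0.19 (adjusted p = 0.0040), and SLC26A3, which exchanges chloride for bicarbonate, by 0.61 ± 0.17 (adjusted p = 0.020). CFTR, the apical chloride channel, and SLC12A2, which loads chloride from the blood side, differed by 0.19 ± 0.14 and -0.22 ± 0.10, with adjusted p-values of 0.43 and 0.16.

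Cell types known to hold AQP4 were followed by their own markers. Of 4 tested genes of enteric glia, 0 were called, 1 had an unadjusted p under 0.05, which is near the 26% of all genes, and the median difference was 0.04. S100B, the calcium-binding protein that marks these cells, differed by 0.24 ± 0.12 (adjusted p = 0.19), and GFAP, their filament protein, was well above background in 2 of 29 rabbits of day 35 and 2 of 27 of day 49. The summed level of the 4 genes, as normalized signal off the log scale, ran from 652.2 to 1819 in the rabbits of day 35 and from 699.2 to 2531 at day 49. Of 9 neuronal genes 0 were called, 5 had an unadjusted p under 0.05 (26% of all genes) and the median was -0.38. ELAVL4, an RNA-binding protein of neurons, led them at -0.47 ± 0.09 (adjusted p = 0.00029), under the size limit, and in FF it fell by 0.53 ± 0.16 (adjusted p = 0.026).

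Markers of acid-secreting stomach cells were near background: ATP4A, the catalytic subunit of the proton pump, was well above it in 8 of 29 rabbits of day 35 and 8 of 27 of day 49, and 6 of the 8 genes of this list on the array were too dim to test. Of the other 2, neither was called nor had an unadjusted p under 0.05. TFF1, a trefoil peptide of the stomach surface, differed by -0.44 ± 0.30 (adjusted p = 0.39).

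Genes of skeletal or cardiac muscle were tested because AQP4 is found in fast muscle fibres. Of 14 tested, 2 rose over all treatments (2.44% of all genes) and none fell, with a median difference of 0.17. This list too was chosen with earlier results of these data known, so its counts are a description. TNNC1 rose by 1.67 ± 0.16 (adjusted p = 1.7e-10). Its lowest, median and highest log2 level were 3.60, 4.12 and 5.18 in FF at day 35 and 5.62, 6.15 and 6.67 at day 49. It was well above background in 11 of 29 rabbits of day 35 and in 26 of 27 of day 49, and its other probe on the array was so in 1 rabbit of all 56, so the rise rests on 1 probe. Like AQP4, TNNC1 was bright enough to test only through the groups of day 49. Its p-value is therefore set against a day 35 level near background. With normexp background correction the rise was 0.61. ACTN2, an actinin of the muscle Z disc, rose by 1.04 ± 0.24 averaged over treatments (adjusted p = 0.0017). It was called in FF alone, at 2.09 ± 0.41 (adjusted p = 0.00066), and differed by 0.22 in NF and 0.82 in FFab. Its mean log2 level at day 35 was 8.69 in FF, 10.24 in NF and 9.94 in FFab, and at day 49 it was 10.77, 10.46 and 10.75. No gene, ACTN2 included, was called for a difference in age change between treatments. Of the other 12 tested, TTN, the giant spring of the sarcomere, had the smallest p, at 0.42 ± 0.10 (adjusted p = 0.0031), under the size limit, and the creatine kinase CKM differed by 0.29 ± 0.18 (adjusted p = 0.32). Of the genes too dim to test, MYL1 was well above background in 0 of 29 rabbits of day 35 and 1 of 27 of day 49, MYL2 in 1 and 2, and the most often detected of 4 probes for MYH1, a fast myosin, in 18 and 15. The summed level of the 14 genes, as normalized signal off the log scale, overlapped, with 29810 to 183192 at day 35 and 35009 to 134741 at day 49. The part of muscle in the AQP4 difference was not tested. Of 9 genes of smooth muscle 0 were called, with a median of 0.02 and 1 at an unadjusted p under 0.05 (26% of all genes). That was KCNMB1, a subunit of the large potassium channel, at -0.21 ± 0.05 (adjusted p = 0.0050).

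Of 8 tested genes of fat tissue, 4 rose over all treatments (2.44% of all genes did), none fell, 6 had an unadjusted p under 0.05 (26% of all genes) and the median difference was 0.56. The list was chosen with earlier results of these data known, so its counts are a description. FABP4, the fatty acid carrier of fat cells, rose by 1.72 ± 0.27 (adjusted p = 1.2e-05). THRSP, a regulator of fatty acid synthesis, rose by 1.34 ± 0.15 (adjusted p = 1.1e-08). LPL, the lipase that frees fatty acids from circulating fat, rose by 1.26 ± 0.15 (adjusted p = 4.6e-08), and GPD1, which makes glycerol phosphate, by 0.56 ± 0.13 (adjusted p = 0.0024). Of the other 4, FASN, the fatty acid synthase, differed by 0.41 ± 0.10 (adjusted p = 0.0024), under the size limit, LEP, the hormone leptin, by 0.56 ± 0.23 (adjusted p = 0.11), DGAT2, which completes triglycerides, by 0.17 ± 0.23 (adjusted p = 0.71) and CD36, a fatty acid receptor, by -0.94 ± 0.53 (adjusted p = 0.26). ADIPOQ, the hormone that defines fat cells, was too dim to test and was well above background in 3 of 29 rabbits of day 35 and 11 of 27 of day 49. The summed level of the 8 genes, as normalized signal off the log scale, ran from 12986 to 49961 at day 35 and from 27764 to 85175 at day 49. Bright genes such as LPL weigh most in this sum. The median of the sum went from 28260 to 48992 in FF, from 24328 to 44680 in NF and from 28398 to 49508 in FFab. Within treatments 3 of the 8 genes were called higher in FF (2.91% of all genes), 0 in NF (0.0249%) and 1 in FFab (0.0747%). In NF, 6 of the 8 had an unadjusted p under 0.05 (6.30% of all genes). The part of fat tissue in the AQP4 difference was not tested, and in bulk tissue a larger share of a cell type and more RNA per cell cannot be told apart.

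Among 11 genes of mature enterocytes 1 rose (2.44% of all genes), 4 had an unadjusted p under 0.05 (26% of all genes) and the median was 0.25. ALPI, the alkaline phosphatase of the brush border, rose by 0.74 ± 0.17 averaged over treatments (adjusted p = 0.0014). It was called in FF alone, at 1.13, and differed by 0.38 in NF and 0.71 in FFab. Of 7 crypt genes 0 were called and 2 had an unadjusted p under 0.05, near the 26% of all genes, with a median of -0.21. LGR5, the stem cell receptor, had the smallest p at -0.28 ± 0.10 (adjusted p = 0.053), and in FF it fell by 0.60 ± 0.17 (adjusted p = 0.019). Its other probe, adjusted over all probes kept, differed by -0.16 ± 0.11 averaged (adjusted p = 0.38) and by -0.27 ± 0.19 in FF (adjusted p = 0.45). The call in FF therefore rests on 1 probe. Of 10 genes that glucocorticoids induce or that carry their signal, 3 fell (1.08% of all genes) and none rose, with a median of -0.34. As with the other lists, earlier results of these data were known when these genes were chosen, so the count is a description. FKBP5, a chaperone that glucocorticoids induce, fell by 1.11 ± 0.29 (adjusted p = 0.0055), SGK1, a kinase that raises sodium uptake, by 0.68 ± 0.22 (adjusted p = 0.029) and ERRFI1, an inhibitor of growth factor receptors, by 0.58 ± 0.17 (adjusted p = 0.014). FKBP5 in FF read 3.78, 5.73 and 8.26 at day 35 and 1.89, 3.83 and 4.65 at day 49, so the ages overlapped. FKBP5 was bright enough to test only through FF at day 35, where 9 of 10 rabbits were well above background. In FF at day 49 it was so in 6 of 9, and in FFab in 4 of 10 at day 35 and 3 of 9 at day 49. Its fall and p-value are therefore set against levels near background. FKBP5 was called in FF alone, at -2.20, and differed by -0.50 in NF and -0.63 in FFab. No gene, with ALPI, LGR5 and FKBP5 included, was called for a difference in age change between treatments.

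The genes whose level was most like that of AQP4 were sought over the 56 arrays, from the first probe and as a description only. These correlations share the age difference that chose AQP4, and the same arrays and scaling. The 6 highest were LPL (Pearson r 0.86, Spearman rho 0.88), TNNC1 (0.83, 0.82), ALDOC (0.83, 0.84), ABCD2 (0.76, 0.78), OPTN (0.76, 0.77) and SERPINF1 (0.75, 0.74), while the median gene had an r of 0.00 and 95% of genes lay below 0.42. ALDOC is an aldolase of glycolysis, ABCD2 a carrier of very long fatty acids into peroxisomes, OPTN an autophagy receptor and SERPINF1 a secreted factor of fat cells and fibroblasts. TNNC1 and ABCD2, like AQP4, were bright enough to test only through the groups of day 49, so their place among these genes depends on that filter. Without the rabbits farthest from the AQP4 median, FFab rabbits lap201 and lap116, the 6 values were between 0.74 and 0.89. Set against the second AQP4 probe, LPL, TNNC1 and ALDOC stood at 0.84, 0.87 and 0.85, and the other 3 between 0.64 and 0.70.

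The 3 lowest were EEF1B2, a translation elongation factor (r -0.74, rho -0.74), ANXA13, an annexin of enterocytes (-0.70, -0.72), and DHRS13, a dehydrogenase of the short-chain family (-0.69, -0.72). ANXA13 fell by 1.08 on the log2 scale over all treatments (adjusted p = 0.0011). EEF1B2 differed by -0.28 and DHRS13 by -0.40, both under the size limit.

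Once each group mean was removed, so that neither age nor treatment entered, the 6 genes most like AQP4 were SERPINF1 (r 0.73, rho 0.74), CCDC80 (0.69, 0.69), MACROH2A2 (0.68, 0.63), HTRA4 (0.67, 0.72), CD99L2 (0.67, 0.64) and HSD11B1 (0.66, 0.67). The median gene had an r of 0.05, and 95% of genes lay below 0.43. CCDC80 is a matrix protein of fibroblasts and fat cells, MACROH2A2 a histone variant, HTRA4 a secreted protease, CD99L2 an adhesion protein, and HSD11B1 the enzyme that regenerates active glucocorticoid inside cells. LPL stood at 0.65. Over the 27 arrays of day 49 alone, where AQP4 was measured in all but 1 rabbit, the deviations of LPL and AQP4 correlated at 0.73, those of CCDC80 at 0.81 and those of SERPINF1 at 0.68. FABP4 stood at 0.43, THRSP at 0.23 and GPD1 at -0.51 over the same arrays, so the fat genes did not all follow AQP4 from rabbit to rabbit. Among the genes named from the other lists, AQP5 stood at 0.78 and S100B at 0.71 in these 27 arrays, though both missed the test of age, and over all 56 arrays their deviations stood at 0.38 and 0.55. Against the second AQP4 probe, MACROH2A2 had an r of -0.01 over the 56 arrays where the first gave 0.29. By the same measure CD99L2 had 0.44 where the first gave 0.64, HTRA4 0.46 and 0.59, and CCDC80 0.56 and 0.70. SERPINF1 had 0.64 and 0.75, and HSD11B1 0.62 and 0.71. The correlations of deviations are from the first probe only, with rabbit lap201 included.

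**Figure D5:**
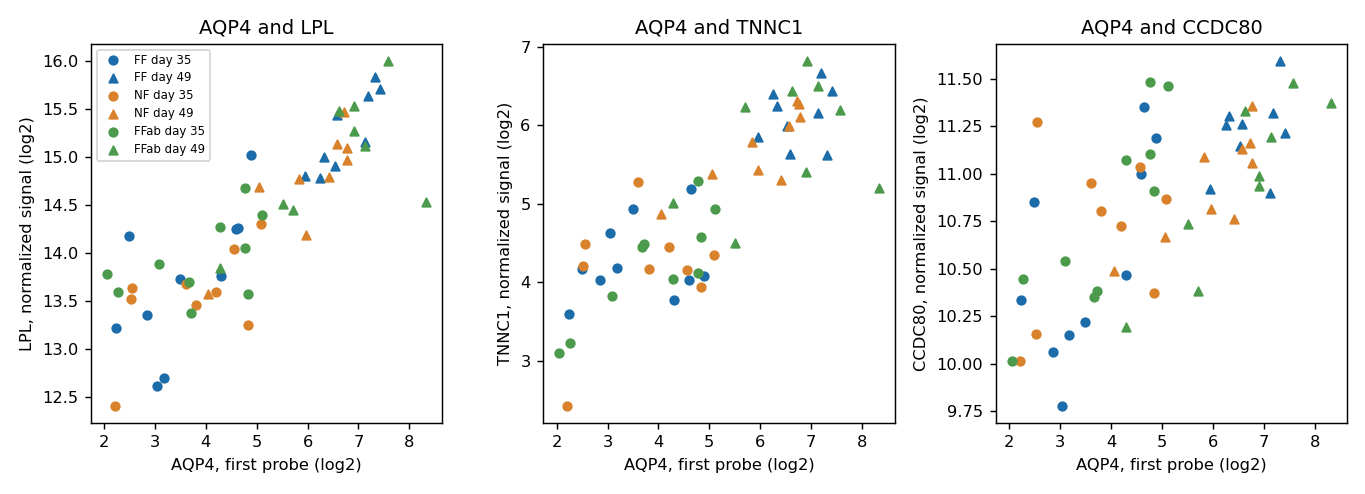
AQP4 on its first probe (x axes) against LPL, TNNC1 and CCDC80 (y axes) in the 56 rabbits, all as normalized log2 signal; circles are day 35, triangles day 49, and colours mark the treatments. The Pearson r is 0.86 for LPL, 0.83 for TNNC1 and 0.70 for CCDC80, and FFab rabbit lap201 is the triangle farthest to the right.

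LPL gave the closest match by level and its values show the pattern. Its lowest, median and highest log2 level were 12.6, 13.7 and 15.0 in FF at day 35 and 14.8, 15.2 and 15.8 at day 49. In NF they were 12.4, 13.6 and 14.3 against 13.6, 14.8 and 15.5, and in FFab 13.4, 13.8 and 14.7 against 13.8, 15.1 and 16.0. The ages overlapped in all 3 treatments for LPL, in FF by the rabbit of day 35 at 15.0. Across the 56 rabbits the summed fat list correlated with AQP4 at an r of 0.72 (rho 0.71), and at 0.31 once the group means were removed. LPL is part of that sum, which is taken off the log scale and so weighs bright genes such as LPL most. The sum is therefore not a match separate from that of LPL.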

How the data were processed

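The authors hybridized Cy3-labelled ileal RNA to custom Agilent rabbit arrays of 62976 spots (1319 controls, 42089 probes) and deposited scanner files with spot intensity and a table of quantile-normalized log2 values. The labels name Feature Extraction 10.7.3.1 and the file headers 10.10.1.1. The scanner's background-subtracted processed intensity was used, flagged spots were left out, spots of a probe were averaged, and log2 values were quantile normalized. The filter asked that 50% or more of a probe's spots be well above background on 75% or more of the arrays of some group, and 31722 probes and 8030 named genes passed, each read from its probe of median level, or the higher of a middle pair. AQP4 passed this filter through the groups of day 49. Each fold change is on the scale of log2 signal. In R 4.3.3, limma 3.58.1 (lmFit, contrasts, eBayes) fitted 6 group means over 56 arrays, and p-values were adjusted over all genes by Benjamini-Hochberg. A call needed an adjusted p under 0.05 and a log2 difference beyond 0.5. The number of arrays limits the precision. Detection was compared with two-sided Fisher's exact tests over 6 pairs a probe.

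The genes named were all measured aquaporins, up to 4 called members of each other list or else the one with the smallest p, and the genes most correlated with AQP4. Some others are named for their role or detection. AQP4 and the gene lists were chosen with earlier results of these data known. The fits were tested on simulated data. NF rabbit 78 of day 35, which the study set aside by clustering, was left out and is given in the closing section. The authors' own fold changes and p-values were not used. The result of 1 listed gene is not reported here.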

Additional observations from a re-analysis of the deposited data

How the results depend on the processing

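The size of the AQP4 age difference depends on the background correction, and its direction does not. With normexp it was 1.11 in FF, 0.71 in NF, 1.03 in FFab and 0.95 averaged. From the median signal without background correction it was 1.57, 1.09, 1.39 and 1.35, and in the authors' log2 values it was 1.59, 1.15, 1.43 and 1.39, both of which keep the background in the signal. The other scalings, both slide blocks, array weights, all 57 arrays, no filter on dim probes and the second probe moved it by less than the SD between rabbits. AQP4 is not well above background on every array, so that filter gave it no value.

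With each rabbit left out in turn, the age difference of the first probe lay between 3.02 and 3.32 in FF, 2.12 and 2.55 in NF, 2.48 and 2.98 in FFab and 2.65 and 2.82 averaged. For the second probe (chosen after seeing the data) the ranges were 2.74 to 2.97, 2.38 to 2.67, 1.87 to 2.32 and 2.39 to 2.54. Leave-one-out ranges that crossed 0 were -0.33 to 0.034 for FF minus NF and -0.35 to 0.041 for NF minus FFab at day 35 and -0.095 to 0.41 for FF minus FFab at day 49, and on the second probe -0.083 to 0.15 for FF minus FFab at day 35 and -0.015 to 0.43 for NF minus FFab at day 49.

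No treatment difference passed under any setting, and several uncalled ones changed sign: FF minus NF at day 35 was 0.063 with 75th percentile scaling, 0.0082 in the authors' table and 0.21 on the second probe, which also gave 0.039 for FF minus FFab at day 35, 0.22 for NF minus FFab at day 49 and 0.40 for the age change of NF minus FFab. The cause was not tested. The listed genes called lower at day 49 were 2 with normexp against 4. No paired analysis was possible because the groups share no rabbit numbers and each rabbit was sampled once. Slides could serve as blocks, and with them the averaged age difference was 2.75 (fixed) and 2.74 (random). The depth of these arrays limits AQP4 most at day 35, where its second probe was not above background in any of 29 rabbits.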

Other observations

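The array of NF rabbit 78, day 35, which entered no comparison, read 4.33 scanner units on the first AQP4 probe and 4.13 on the second, neither well above background. With it included the averaged age difference of the first probe was 2.75.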
